A study of Mus musculus with 4 samples.

Results

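The primary cilium is a single sensory projection whose membrane differs in proteins and lipids from the cell surface around it. Its signalling was followed here at the RNA level through 10 genes, listed by name for ciliary membrane receptors, channels, lipid enzymes and cargo carriers. The table held 9 of them among 18471 genes, and all 9 passed the filter on low counts; Sstr3, which encodes a ciliary somatostatin receptor, was not analysed here. The comparison was between embryonic retinas of 2 labelled genotypes, wild-type and Foxn3KO. The Foxn3KO embryos had the genotype Foxn3-/- on the line C57BL/6NJ-Foxn3em1(IMPC)Bay/Mmnc, with exon 3 of Foxn3, a gene for a forkhead transcription factor, deleted. Each group had 2 libraries at embryonic day 19, each from the retina of a separately genotyped embryo. The deletion is not restricted to the retina. The study concerns a gene network around Foxn3 that acts on primary cilia in the developing retina.

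Proteins enter the ciliary membrane by a few known routes. The adaptor TULP3 binds phosphoinositides and the transport complex IFT-A, and brings in receptors such as GPR161 and the polycystins. INPP5E, a lipid phosphatase, keeps the ciliary membrane poor in the phosphoinositide that TULP3 binds, so cargo is let go inside. Lipid-anchored proteins travel on soluble carriers: PDE6D carries prenylated cargo such as INPP5E, and UNC119 and UNC119B carry myristoylated cargo such as transducin. The small GTPase ARL3 makes these carriers release their load in the cilium. Within the membrane, adenylyl cyclase 3 makes cyclic AMP, GPR161 raises it and holds Hedgehog signalling down, and PKD1 and PKD2 form a channel complex. In photoreceptors the light-sensing outer segment is a modified cilium served by the same carriers.

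Of the 9 genes, 4 passed an adjusted p of 0.05 (edgeR quasi-likelihood test, adjusted by Benjamini-Hochberg across 17300 tested genes). Unc119b, Unc119 and Tulp3 were higher in the libraries labelled Foxn3KO and Pkd2 was lower. Unc119b differed most, by 49.4%, followed by Pkd2, by -19.9%, while Unc119 and Tulp3 were 1.12-fold higher. Over all tested genes 21.9% passed, 12.3% higher and 9.66% lower. The median log2 fold change was 0.03 over the 9 genes and -0.00470 over all tested genes.

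The promoters of the 4 genes that passed are shown because these genes differed between the groups and the mutated gene encodes a DNA-binding protein. Each line gives the 250 bases upstream of the annotated start, from the RefSeq table of GRCm38.p6, which is not the build of the counts. Letters in capitals mark matches, on either strand, to 3 motifs. These are the forkhead motif GTAAACA, the alternative motif GACGC that FOXN3 is also known to bind, and the half-site of the X-box, GTTGCC or GTTACC, bound by RFX factors. The matches do not overlap each other.
Unc119b (chr5:115134976-115135225, minus strand): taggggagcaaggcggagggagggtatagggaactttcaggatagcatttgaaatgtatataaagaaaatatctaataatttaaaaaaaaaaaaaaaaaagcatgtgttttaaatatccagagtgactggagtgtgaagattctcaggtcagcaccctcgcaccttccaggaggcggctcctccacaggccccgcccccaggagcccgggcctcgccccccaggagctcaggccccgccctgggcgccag
Unc119 (chr11:78343245-78343494, plus strand): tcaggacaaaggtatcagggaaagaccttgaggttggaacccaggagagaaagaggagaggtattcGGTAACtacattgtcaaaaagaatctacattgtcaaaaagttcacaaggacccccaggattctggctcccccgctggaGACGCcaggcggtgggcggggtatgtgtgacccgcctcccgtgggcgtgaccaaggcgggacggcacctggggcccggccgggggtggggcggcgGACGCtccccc
Tulp3 (chr6:128355852-128356101, minus strand): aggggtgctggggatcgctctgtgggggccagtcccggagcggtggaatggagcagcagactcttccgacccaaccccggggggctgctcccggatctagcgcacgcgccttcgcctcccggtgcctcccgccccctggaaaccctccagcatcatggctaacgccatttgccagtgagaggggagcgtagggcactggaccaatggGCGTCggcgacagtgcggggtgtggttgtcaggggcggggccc
Pkd2 (chr5:104459207-104459456, plus strand): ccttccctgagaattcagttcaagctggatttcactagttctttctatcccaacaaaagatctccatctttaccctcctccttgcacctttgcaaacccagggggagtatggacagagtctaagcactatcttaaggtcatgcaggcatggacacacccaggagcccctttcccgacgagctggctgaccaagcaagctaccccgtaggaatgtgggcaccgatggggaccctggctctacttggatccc

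Unc119 held 2 matches to GACGC and 1 to an X-box half-site in this window, and Tulp3 held 1 match to GACGC. The windows of Unc119b and Pkd2 held none of the 3 motifs. Unc119 has 3 promoters in the table and the first is shown; the other two held no match. Among 32851 promoter windows of the same length, 22.6% held GACGC, 15.7% an X-box half-site and 3.17% GTAAACA. A match to GACGC was also found for Adcy3, in the second of its 2 promoters, and none of the 3 motifs was found for Inpp5e, Gpr161, Pkd1 or Pde6d. The Tulp3 window shares 98 bases with exons of Gm26770. Its content was 69.2% G and C, against 61.2% for Unc119, 52% for Unc119b and 52.8% for Pkd2. The second Inpp5e window, with no match, was at 69.6%, and the second Adcy3 window, with a match, was at 56%.

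Facts of the libraries bear on every value that follows. Total counts ranged from 22543531 to 29360129. Foxn3 itself had 2421 and 2712 counts in the wild-type libraries and 4181 and 3219 in those labelled Foxn3KO, a log2 fold change of 0.54 (SE 0.046, adjusted p = 7.80e-08). Gene counts do not resolve exon 3, and since the targeted gene was not lower, directions rest on the labels. Wild-type replicate 1 had 83073 counts of Xist and 0 of Ddx3y, and the other libraries 9 to 19 and 1780 to 2317, so it differs from them in sex-linked transcripts. Markers of the retina were present in all libraries: 8 of 8 progenitor markers were in the table, with a summed level of 2762 and 2942 CPM (counts scaled to library size with TMM factors) in wild-type and 2882 and 2928 in Foxn3KO. Lens markers summed to 4.96 and 78.2 CPM in wild-type and 258 in each Foxn3KO library, with 9 of 10 tested higher and Crygs at 0 in a library. Multiciliated cell markers summed to 45.9 and 42.8 CPM against 582 and 573, with 9 of 9 higher and Mcidas not analysed here. In bulk RNA, fewer cells of a type and less RNA per cell cannot be told apart.

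The carriers of lipid-anchored cargo were taken first. Unc119b was at 99.5 and 100.7 CPM in the wild-type libraries and at 149.4 and 149.8 CPM in those labelled Foxn3KO. Means were 100.1 ± 0.885 and 149.6 ± 0.337 CPM (SD, n = 2 each), so the groups lay far apart against their spread. The log2 fold change was 0.58 (SE 0.046, 95% interval 0.48 to 0.68, adjusted p = 2.71e-08), and 7.27% of all tested genes had a higher value. Leaving out any library kept it between 0.572 and 0.589. Without wild-type replicate 1, the library that differs in sex, it was 0.572 (edgeR adjusted p = 1.55e-35, from 1 wild-type library assumed to vary like the Foxn3KO pair). The part of the lens and multiciliated markers, which differed between the groups as given above, was not tested.

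Unc119, its paralog, is best known from photoreceptors and their synapses. It was at 108.1 and 107.1 CPM in wild-type and at 121.6 and 119.7 CPM in Foxn3KO. The groups did not overlap, but the difference was smaller than that of Unc119b, with a log2 fold change of 0.17 (SE 0.046, 95% interval 0.07 to 0.26, adjusted p = 0.0158). It passed with all 4 libraries and did not pass without either one of the Foxn3KO libraries. The log2 fold change was then 0.155 without Foxn3KO replicate 1 and 0.179 without Foxn3KO replicate 2, so its size changed little. Of 12 photoreceptor precursor markers, 7 passed as higher, none passed as lower and 5 did not pass, with Thrb at -0.18 on the log2 scale (adjusted p = 0.0550) nearest to a call in the other direction. Their summed level was 1421 and 1418 CPM in wild-type against 1519 and 1518 CPM in Foxn3KO, with none at 0. The part of photoreceptor number or state in the Unc119 difference was not tested.

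Pde6d, the prenyl-binding carrier, was at 53.3 and 52.5 CPM in wild-type and at 57.1 and 54.1 CPM in Foxn3KO. Both Foxn3KO values lay above the wild-type ones, but the difference did not pass. Its log2 fold change was 0.07 with a 95% interval from -0.05 to 0.19 (adjusted p = 0.402). A rise of the size seen in Unc119b lies outside the interval, and the 0.17 of Unc119 lies inside it. Without Foxn3KO replicate 1 the value was 0.03 and without Foxn3KO replicate 2 it was 0.11.

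**Figure D1:**
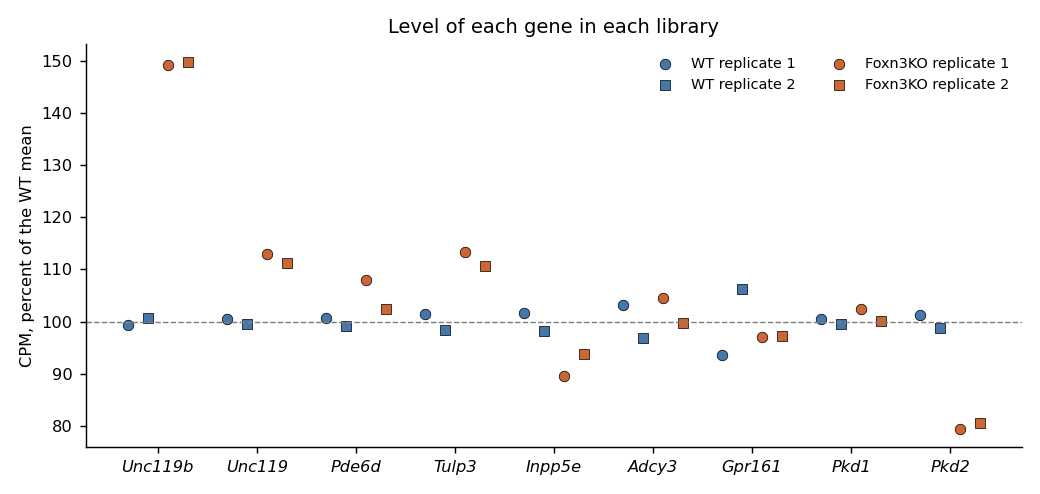
CPM of each of the 9 genes in each library (y axis, percent of the wild-type mean; blue, wild-type; orange, Foxn3KO; circles, replicate 1; squares, replicate 2). Unc119b stands near 150 in both Foxn3KO libraries and Pkd2 near 80, while Adcy3, Gpr161 and Pkd1 overlap between the groups.

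Tulp3, the adaptor for membrane receptors, was at 71.3 and 69.2 CPM in wild-type and at 79.6 and 77.7 CPM in Foxn3KO. The groups did not overlap, and the log2 fold change was 0.16 (SE 0.052, 95% interval 0.05 to 0.27, adjusted p = 0.0300). The call depended on the analysis: Tulp3 did not pass in DESeq2 (adjusted p = 0.107) or under total count scaling (adjusted p = 0.0545). It also did not pass without Foxn3KO replicate 1 (log2 fold change 0.147) or without Foxn3KO replicate 2 (log2 fold change 0.184).

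The lipid phosphatase gene Inpp5e was at 42.3 and 40.9 CPM in wild-type and at 37.3 and 39.1 CPM in Foxn3KO. Its groups did not overlap either, with the lower values in Foxn3KO, but the log2 fold change of -0.12 did not pass (95% interval -0.26 to 0.01, adjusted p = 0.177). Inpp5e thus had the opposite sign to Tulp3 and the carriers, without a call. It shares exon bases on the opposite strand with Pmpca; the use of strand in counting is not given in the sources used here.

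Adcy3, the cyclase used as a marker of neuronal cilia, was the least abundant, at 13.2 and 12.4 CPM in wild-type and 13.4 and 12.8 CPM in Foxn3KO. The groups overlapped, and the log2 fold change was 0.03 (95% interval -0.18 to 0.25, adjusted p = 0.865). Its lowest count was 286, which alone gives a counting error of 5.91%, and its interval was the widest of the 9. Leaving out wild-type replicate 2 gave -0.01, leaving out Foxn3KO replicate 1 gave -0.00396, and leaving out wild-type replicate 1 gave 0.08. It shares exon bases with Cenpo on the opposite strand.

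Gpr161 was at 50.5 and 57.3 CPM in wild-type and at 52.3 and 52.4 CPM in Foxn3KO. Here the wild-type replicates were further apart than the groups, and both Foxn3KO values lay between them. The log2 fold change was -0.04 (95% interval -0.18 to 0.09, adjusted p = 0.693); leaving out wild-type replicate 1 gave -0.13, and leaving out wild-type replicate 2 gave 0.05.

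The polycystins, which work as a complex, differed from each other. Pkd2, the channel subunit, was at 87.8 and 85.7 CPM in wild-type and at 69.0 and 69.9 CPM in Foxn3KO. The groups were well apart, with a log2 fold change of -0.32 (SE 0.051, 95% interval -0.43 to -0.21, adjusted p = 0.000151), and 10.6% of tested genes had a lower value. Leaving out any library kept it between -0.339 and -0.302, and it passed each time. Pkd1, the large receptor-like subunit, was at 113.5 and 112.5 CPM in wild-type and at 115.7 and 113.2 CPM in Foxn3KO. Those groups overlapped, with a log2 fold change of 0.02 (95% interval -0.08 to 0.12, adjusted p = 0.829) and a sign that changed under total count scaling, to -0.00247. The interval of Pkd1 does not reach the value of Pkd2. Pkd1 shares exon bases with Tsc2 on the opposite strand.

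**Figure D2:**
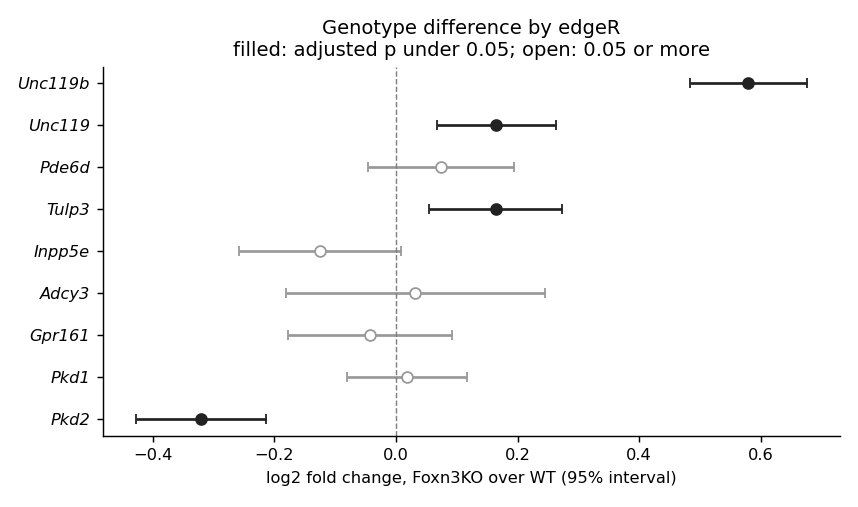
Log2 fold change of each gene, Foxn3KO over wild-type (x axis), with its 95% interval from the edgeR fit to 2 libraries a group; filled points passed an adjusted p of 0.05. Unc119b at 0.58 and Pkd2 at -0.32 lie furthest from 0, and 5 of the 9 intervals include 0.

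Without a test, 6 of the 9 genes had groups that did not overlap, 4 with the higher values in Foxn3KO and 2 with the lower. Among all tested genes 60.4% did so, 29.9% with the higher and 30.5% with the lower values in Foxn3KO, so this count is near the background.

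Levels between genes were compared per length, with the authors' FPKM, which relates fragments to transcript length and to the library's depth. Unc119 was highest in every library, from 43.6 to 49.5 FPKM. In wild-type Pde6d followed, at 24.3 and 24.0 FPKM, then Unc119b, at 21.5 and 21.8 FPKM. In Foxn3KO Unc119b stood above Pde6d, at 32.4 and 32.5 against 26.2 and 24.8 FPKM, so their order changed. Inpp5e, Tulp3, Pkd2, Gpr161 and Pkd1 lay together between 6.44 and 9.80 FPKM. Within that band Inpp5e was highest in both groups, with 9.80 and 9.48 FPKM in wild-type and 8.65 and 9.06 in Foxn3KO, and Pkd1 lowest. Pkd2 was second in the band in wild-type, at 8.60 and 8.40 FPKM, and stood below Gpr161 in Foxn3KO, at 6.77 and 6.86 against 7.49 and 7.51 FPKM. In wild-type the ranges of Tulp3 and Gpr161 overlapped, and in Foxn3KO no neighbours in the order did. Adcy3 was far lower, from 1.98 to 2.14 FPKM.

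**Figure D3:**
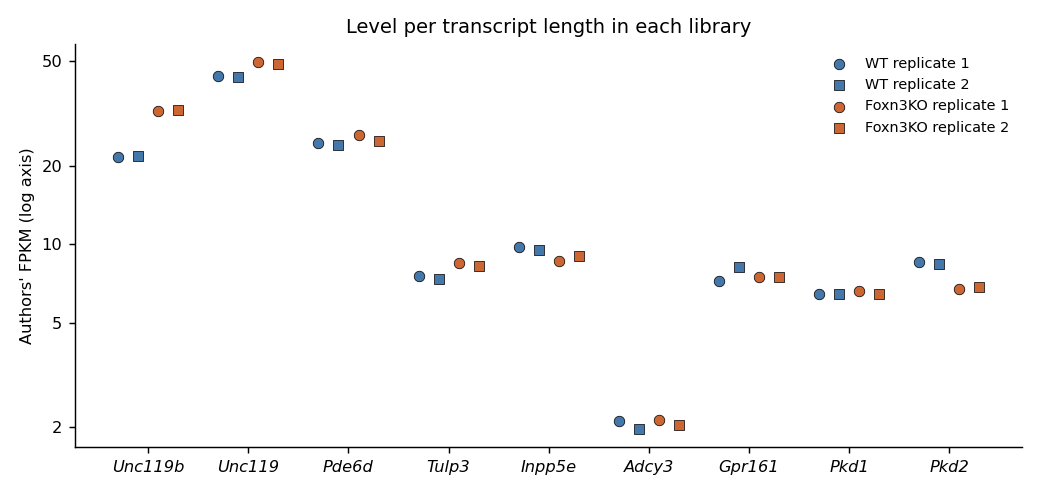
The authors' FPKM of each gene in each library, on a log axis (colours and symbols by group and replicate). The 3 carriers stand above 20 FPKM, the 5 genes Tulp3, Inpp5e, Gpr161, Pkd1 and Pkd2 between 6.44 and 9.80, and Adcy3 near 2.

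Ratios within a library show these shifts without any scaling between libraries. The ratio of Unc119b to Unc119 in FPKM was 0.489 and 0.500 in wild-type and 0.653 and 0.666 in Foxn3KO. The ratio of Pkd2 to Pkd1 was 1.33 and 1.30 in wild-type and 1.02 and 1.06 in Foxn3KO. The ratio of Pde6d to Unc119 was 0.554 and 0.551 in wild-type and 0.528 and 0.508 in Foxn3KO. The groups did not overlap in any of these ratios, and 60.4% of all tested genes did not overlap in CPM. Each ratio holds a gene called above, so these values restate its difference. A two-sided exact permutation test gave p = 0.333 for each ratio, the smallest value that 2 libraries against 2 allow.

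**Figure D4:**
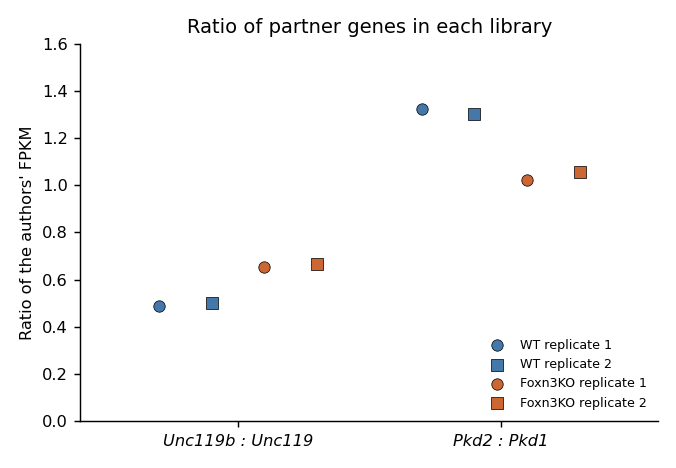
Ratio of the authors' FPKM of Unc119b to Unc119 and of Pkd2 to Pkd1 in each library (y axis from 0). The first ratio is near 0.5 in wild-type and above 0.65 in Foxn3KO; the second is at 1.30 or more in wild-type and at 1.06 or less in Foxn3KO.

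The genes that act with these proteins were taken from lists written with earlier results in view. The counts of each list stand beside 12.3% of all tested genes higher and 9.66% lower. Partners of the carriers had 3 of 6 tested genes higher and none lower, with a median log2 fold change of 0.13. The 3 that did not pass were Rp2, at -0.19 (adjusted p = 0.0659), Arl2, at 0.06, and Cys1, at -0.04. Arl3, the GTPase that unloads the carriers, was at 84.3 and 80.4 CPM in wild-type and at 113.2 and 107.4 CPM in Foxn3KO, a log2 fold change of 0.42 (adjusted p = 7.28e-06). Arl2bp, a binding partner of ARL2 and ARL3, had a log2 fold change of 0.20 (adjusted p = 0.00491) and did not pass without Foxn3KO replicate 2 (adjusted p = 0.0929). Rpgr, a ciliary gate protein that binds PDE6D, differed most, from 62.8 and 63.9 to 141.0 and 138.0 CPM, a log2 fold change of 1.14 (adjusted p = 4.32e-12). The list's median was 0.28 without wild-type replicate 2, 0.08 without Foxn3KO replicate 1 and 0.22 without Foxn3KO replicate 2.

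Of 6 tested genes for lipid-anchored photoreceptor cargo, 2 were higher and 4 did not pass. Those that did not pass were the transducin genes Gnat1 and Gnat2 (log2 fold changes of 0.36 and -0.09), Grk1 (0.33) and Pde6c (-0.00249). Gnat1 had only 11 to 20 counts. Pde6b, a subunit of the rod phosphodiesterase, had a log2 fold change of 0.84 (adjusted p = 0.000134) and Rab28, a small GTPase of the outer segment, 0.29 (adjusted p = 0.000688). The median was 0.31, or 0.21 without Foxn3KO replicate 2, and 4 genes passed without wild-type replicate 1.

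The IFT-A complex, to which TULP3 binds, had 5 of 6 genes higher and a median of 1.05. Ift122 was at 50.2 and 51.6 against 114.5 and 113.4 CPM, a log2 fold change of 1.16 (adjusted p = 6.29e-12), and Wdr35 (1.03), Wdr19 (1.07) and Ift43 (1.14) were alike in size. Of the other subunits, Ift140 had 0.26 (adjusted p = 0.00486; 95% interval 0.13 to 0.39, which overlaps that of Tulp3), and Ttc21b did not pass, with 0.02 (adjusted p = 0.889). Both were named after their values were seen. The remaining tubby proteins had 2 of 3 genes higher: Tulp1, a photoreceptor protein, and Tub each had a log2 fold change of 0.37 (adjusted p = 1.15e-05 and 2.39e-05). Tulp4 did not pass, with -0.09 (adjusted p = 0.186), and Tulp2 was not analysed here.

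The remaining inositol 5-phosphatases and kinases that make their substrate had a median of -0.06. Against 21.9% of all tested genes, 1 of 13 passed. This was Inpp5j, at 2.94 and 3.42 against 1.92 and 1.65 CPM, with a log2 fold change of -0.82 (adjusted p = 0.0147). It did not pass in DESeq2 (adjusted p = 0.0893), without wild-type replicate 2 (adjusted p = 0.0610) or without Foxn3KO replicate 2 (adjusted p = 0.0828), and without wild-type replicate 1 the list had 3 calls.

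Among 14 other cyclase and protein kinase A genes, 5 were higher and 2 lower, with a median of 0.11. The regulatory subunits Prkar1a and Prkar2a had log2 fold changes of 0.27 (adjusted p = 8.93e-05) and 0.24 (adjusted p = 0.00144). The cyclases Adcy1 and Adcy6 had -0.29 (adjusted p = 0.000186) and -0.17 (adjusted p = 0.0142). Adcy6 did not pass without Foxn3KO replicate 1 (adjusted p = 0.238) or without Foxn3KO replicate 2 (adjusted p = 0.103), either of which left 3 calls in the list, and the median was 0.07 without wild-type replicate 1.

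Receptors known from cilia had 1 of 16 tested genes lower and none higher, with a median of -0.11. Over all tested genes 9.66% passed as lower, so the count of lower receptors is near the background. The one called was the neurotrophin receptor Ngfr, at 54.7 and 59.8 against 42.9 and 45.2 CPM, with a log2 fold change of -0.38 (adjusted p = 0.000233). Leaving out wild-type replicate 1 gave 3 calls in the list, and leaving out wild-type replicate 2 gave 2. Of the remaining polycystins 1 gene was tested and it did not pass.

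The Hedgehog pathway, which GPR161 holds down, had 6 of 14 genes lower and none higher, with a median of -0.13. Gli1, a target and effector of the pathway, was at 161.4 and 162.0 against 96.8 and 96.3 CPM, a log2 fold change of -0.74 (adjusted p = 7.92e-10). The co-receptor gene Gas1 had -0.41 (adjusted p = 2.17e-06), the antagonist gene Hhip -0.39 (adjusted p = 0.000103) and Ccnd1 -0.18 (adjusted p = 0.00376). Ptch1, the receptor and itself a target, did not pass, with -0.07 (adjusted p = 0.265). Without Foxn3KO replicate 1 the list had 3 calls. Ccnd1 did not pass then (adjusted p = 0.287), nor without Foxn3KO replicate 2 (adjusted p = 0.338). Other markers differed with genotype as well. Pigment epithelium markers had 3 of 7 tested genes lower, with summed levels of 51.7 and 76.2 CPM in wild-type and 40.5 and 41.6 CPM in Foxn3KO and none at 0; Rpe65 was not analysed here. Amacrine and horizontal cell markers had 4 of 9 lower, with 696 and 742 against 711 and 695 CPM, and progenitor markers had 3 of 8 higher and 1 lower. The part of these and of the multiciliated and lens markers in the differences of Pkd2, Ngfr, the Hedgehog genes and the other lists was not tested.

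**Figure D5:**
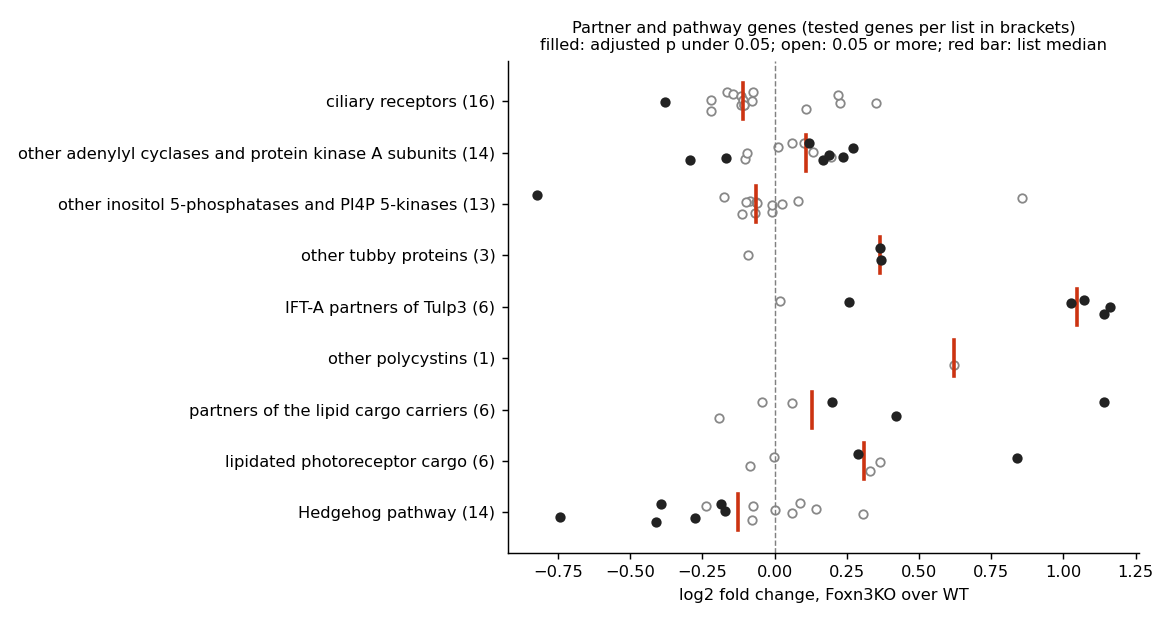
Log2 fold change, Foxn3KO over wild-type (x axis), of each tested gene in the 9 partner and pathway lists; filled points passed an adjusted p of 0.05 and red bars are list medians. Median values run from -0.13 for the Hedgehog pathway to 1.05 for IFT-A, and filled points lie on both sides of 0 for the cyclase and kinase list.

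The genes most like Unc119b in pattern were Nek4, Clip4 and Prepl. Likeness was the root mean square distance of centred log2 CPM over the 4 libraries, which was 0.00762, 0.00912 and 0.0139 among 10839 genes compared. Their log2 fold changes were 0.59, 0.56 and 0.58, beside 0.58 for Unc119b. They were chosen for likeness over these same libraries, so near-equal fold changes follow from the choice.

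In the authors' deposited table the log2 fold changes were 0.57 for Unc119b, 0.16 for Unc119, 0.16 for Tulp3 and -0.31 for Pkd2. The adjusted p-values in the authors' deposited table were 3.51e-20, 0.0446, 0.107 and 0.000108, so Tulp3 is the gene whose call differs from the edgeR fit.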

How the data were processed

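RNA was sequenced from 2 wild-type and 2 Foxn3KO retinas at embryonic day 19. Per the labels, library preparation kept strand information and added molecular identifiers. The authors deposited whole-number counts per gene and FPKM values per library in 1 table, with a mean normalized signal, log2 fold changes and p-values of their own. Per the submitters' processing notes, DESeq2 and the build mm39 were used; the aligner, the annotation, and the use of strand and identifiers are not given in the sources used here.

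From the counts, 18471 genes were kept after a repeated identifier was dropped; genes under a sum of 16 counts were not in the table used here. Low counts were removed with filterByExpr, leaving 17300 genes. The test was the quasi-likelihood F test of edgeR 4.0.16 under R 4.3.3 on TMM-scaled counts (newer fit of that release, genotype as the only term, two-sided, Benjamini-Hochberg adjustment over all tested genes, threshold 0.05). Unless another tool, scaling, source or a left-out library is named, every adjusted p is from this fit. SE and 95% intervals were derived from the F statistic. The procedure was tested on simulated data with 200 changed genes. Their changes were all larger than that of Unc119b, so differences as small as those of Unc119 and Tulp3 were not covered. Replicates differed beyond sampling noise: leaving out Xist, the chi-square per gene had a median of 1.29 for the wild-type pair and 0.788 for the Foxn3KO pair, against 0.455 under sampling noise alone. P-values rest on the spread between 2 embryos a group, which the edgeR fit moderates with information from all tested genes. FPKM served to compare levels between genes.

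The members, lists and tests were chosen with earlier results of these data known. Every member and Foxn3 were named. Of each list up to 4 called genes with the smallest p were named, with Gli1, Ptch1 and Arl3 whatever their values, and the 3 genes nearest in pattern to the member with the smallest p, among genes averaging 10 CPM or more. A pair of list genes is not reported here and was left out of its list. Alternatives were other scalings, filters, tools (DESeq2 1.42.0, limma-voom from limma 3.58.1), a looser threshold of 0.1, a block for the replicate number, and every fit with 1 library left out. Promoters matched all 10 members by symbol. Exon overlaps came from GENCODE on GRCm38, so no coordinates of genes are given. Figures were drawn with matplotlib 3.10.9.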

Additional observations from a re-analysis of the deposited data

How the results depend on the processing

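Of all tested genes, 3795 passed. DESeq2 called 2437, of which 2436 were among the 3795; the cause was not tested. Leaving out each library in turn gave 2323 to 5067 genes, from fits in which the lone library of a group was assumed to vary like the other group. The 4 members called became 2 to 4 when a library was left out: Unc119b and Pkd2 passed under every alternative run, and Unc119 and Tulp3 did not pass without either Foxn3KO library. Reversed signs occurred in members that were not called, each near 0: Adcy3 (-0.0116 to 0.0824 when a library was left out, negative without wild-type replicate 2 and without Foxn3KO replicate 1, at -0.00396), Gpr161 (-0.129 to 0.0521, positive without wild-type replicate 2) and Pkd1 (-0.00247 under total count scaling). Over the genes and lists named, the alternatives left 632 values the same. The 14 that no longer passed were single genes, and the 37 that moved were medians or counts of lists.

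The differences between replicates 1 and 2 correlated at -0.00825 between the groups. The wild-type pair also differed in sex-linked transcripts and lens markers, so this value does not decide whether replicate numbers pair the samples. With the replicate block 4222 genes passed, 3792 of them among the 3795, and the same 4 members were called. Depth limits Adcy3 most, at 286 to 390 counts; intervals for counting error do not cover duplicate reads.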
